A study of Mus musculus with 12 samples.

Results

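Liver immune cells captured by CD45 were compared, across all genes, between C57BL/6 mice given polyIC and control mice. The comparison used 6 of the 12 libraries of the study, namely 3 polyIC libraries and 3 control libraries, chosen by their labels and not by their values. The fit behind the p-values held all 12 libraries, so the spread it used came also from libraries not compared here. In the polyIC group, 4 mg/kg polyIC in PBS was injected intraperitoneally on days 14, 16, 18, 20 and 22, and 200 µg of control IgG was given on days 17, 19 and 21. Control mice received PBS and the same 200 µg of IgG on the same days. On day 0, genes for human c-Myc and N-ras, both oncogenes, were put into the livers of both groups by hydrodynamic transfection, in which a large volume of plasmid solution is pushed quickly into a vein. Neither group is therefore a normal liver, and the difference between them is that of polyIC added to oncogene transfection, PBS and IgG. Day 24 is given for euthanasia in the protocol and day 22 in the time point label. The labels name neither the promoter on the plasmids nor the age and sex of the mice nor the number of mice behind a library, so the p-values below measure the spread between libraries, which may be technical. Cells were captured with a CD45 antibody and magnetic beads. CD45 is a phosphatase on the surface of nearly all immune cells.

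PolyIC is a synthetic double-stranded RNA that imitates the RNA of replicating viruses. Endosomal TLR3, which signals through TRIF, and cytosolic MDA5, which signals through MAVS, sense it and switch on IRF3 and NF-kB, and the type I interferon made in response induces a wide set of antiviral genes through the ISGF3 complex. Interferon and the cytokines that follow are also known to activate NK cells and to help dendritic cells prime CD8 T cells. In the liver these lymphocytes share the sinusoids with Kupffer cells, the resident macrophages, and with monocytes and neutrophils that enter from the blood.

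Promoters of 10 genes are printed here because they stand for 3 groups of genes that the results turn on, and because a short sequence defines the control known for each group. They are RefSeq windows of GRCm38.p6, from 250 bases before to 50 after the annotated start, written 5′ to 3′ on the strand of the gene. The expression table was made on mm9, so these coordinates belong to the windows alone. In the antiviral genes Isg15 (chr4:156200769-156201068, minus strand) and Ifit1 (chr19:34640639-34640938, plus strand), capitals mark GAAANNGAAA or its complement TTTCNNTTTC, the core of the element bound by ISGF3.
Isg15: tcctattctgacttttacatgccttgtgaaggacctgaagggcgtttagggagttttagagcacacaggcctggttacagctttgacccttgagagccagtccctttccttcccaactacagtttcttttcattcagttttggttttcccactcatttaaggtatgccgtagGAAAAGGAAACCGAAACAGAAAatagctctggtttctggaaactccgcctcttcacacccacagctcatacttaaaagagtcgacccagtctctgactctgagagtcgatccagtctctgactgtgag
Ifit1: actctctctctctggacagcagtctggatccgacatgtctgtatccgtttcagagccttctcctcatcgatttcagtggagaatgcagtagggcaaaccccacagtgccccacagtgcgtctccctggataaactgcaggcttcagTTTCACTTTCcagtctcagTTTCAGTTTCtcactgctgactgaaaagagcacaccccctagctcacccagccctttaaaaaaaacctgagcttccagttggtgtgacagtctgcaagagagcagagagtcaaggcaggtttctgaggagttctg
In the cytotoxic granule genes Gzma (chr13:113100932-113101231, minus strand), Gzmk (chr13:113180916-113181215, minus strand), Gzmb (chr14:56262285-56262584, minus strand) and Prf1 (chr10:61297586-61297885, plus strand), capitals mark TGTGGT or ACCACA, the core of sites for RUNX factors. Runx3 is known to act on such genes in mouse CD8 T cells.
Gzma: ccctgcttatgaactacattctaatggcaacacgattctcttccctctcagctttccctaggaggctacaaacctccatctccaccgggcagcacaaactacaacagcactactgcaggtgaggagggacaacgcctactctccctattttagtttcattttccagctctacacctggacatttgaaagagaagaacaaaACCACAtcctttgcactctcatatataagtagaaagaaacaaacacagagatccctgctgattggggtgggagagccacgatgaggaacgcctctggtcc
Gzmk: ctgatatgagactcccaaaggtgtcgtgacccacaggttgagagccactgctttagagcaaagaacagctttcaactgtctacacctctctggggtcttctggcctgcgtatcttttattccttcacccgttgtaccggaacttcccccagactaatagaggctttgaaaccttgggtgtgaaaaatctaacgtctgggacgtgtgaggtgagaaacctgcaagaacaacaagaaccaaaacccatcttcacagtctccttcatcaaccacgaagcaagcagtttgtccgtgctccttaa
Gzmb: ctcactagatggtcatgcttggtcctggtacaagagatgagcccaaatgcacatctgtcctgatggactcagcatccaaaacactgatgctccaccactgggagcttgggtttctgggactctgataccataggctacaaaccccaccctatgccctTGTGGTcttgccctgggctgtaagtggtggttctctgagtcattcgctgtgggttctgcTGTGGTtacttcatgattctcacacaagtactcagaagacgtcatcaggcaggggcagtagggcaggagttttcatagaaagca
Prf1: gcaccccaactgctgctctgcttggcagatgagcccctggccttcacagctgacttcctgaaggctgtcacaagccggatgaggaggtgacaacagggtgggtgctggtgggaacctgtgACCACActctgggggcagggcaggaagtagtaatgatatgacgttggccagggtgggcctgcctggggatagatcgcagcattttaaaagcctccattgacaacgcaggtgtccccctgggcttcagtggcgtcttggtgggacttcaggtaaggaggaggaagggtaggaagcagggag
In the mitosis genes Kif11 (chr19:37376132-37376431, plus strand), Top2a (chr11:99024140-99024439, minus strand), Ccnb2 (chr9:70421505-70421804, minus strand) and Ccnb1 (chr13:100786437-100786736, minus strand), capitals mark TTTGAA or TTCAAA, the cell cycle genes homology region through which DREAM and B-MYB complexes are known to time expression.
Kif11: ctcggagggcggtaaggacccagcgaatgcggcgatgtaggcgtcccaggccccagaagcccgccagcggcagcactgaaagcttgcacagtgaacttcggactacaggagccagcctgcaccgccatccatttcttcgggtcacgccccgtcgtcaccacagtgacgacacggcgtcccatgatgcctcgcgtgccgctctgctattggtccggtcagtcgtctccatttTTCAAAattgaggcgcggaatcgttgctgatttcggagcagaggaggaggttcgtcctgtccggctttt
Top2a: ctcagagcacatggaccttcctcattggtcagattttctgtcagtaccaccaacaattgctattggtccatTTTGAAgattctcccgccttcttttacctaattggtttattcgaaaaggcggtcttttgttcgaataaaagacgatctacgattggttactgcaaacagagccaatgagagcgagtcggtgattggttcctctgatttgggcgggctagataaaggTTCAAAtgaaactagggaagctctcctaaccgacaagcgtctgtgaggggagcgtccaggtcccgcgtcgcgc
Ccnb2: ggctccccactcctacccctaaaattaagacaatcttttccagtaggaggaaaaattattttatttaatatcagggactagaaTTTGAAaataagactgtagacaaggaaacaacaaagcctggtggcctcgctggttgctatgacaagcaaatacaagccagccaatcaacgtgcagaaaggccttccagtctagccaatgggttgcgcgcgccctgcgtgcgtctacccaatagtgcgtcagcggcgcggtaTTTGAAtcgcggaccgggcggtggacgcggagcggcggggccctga
Ccnb1: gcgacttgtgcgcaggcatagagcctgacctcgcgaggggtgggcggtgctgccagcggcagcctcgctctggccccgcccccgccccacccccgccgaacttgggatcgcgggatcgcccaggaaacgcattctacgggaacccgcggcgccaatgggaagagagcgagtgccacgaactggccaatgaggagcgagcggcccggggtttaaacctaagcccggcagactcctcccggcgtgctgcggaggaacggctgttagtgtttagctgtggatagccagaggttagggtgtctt
The windows of Gzmk and Ccnb1 hold no match and are shown for that contrast, which says only that these letters are not in this window. A match is a description of the sequence and not a mapped site.

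The libraries differed in more than treatment. Values are FPKM (fragments scaled by transcript length and library total), and read counts are not in the table. A relative depth taken from the steps between low values was 0.562, 0.542 and 0.579 of the deepest library of the study with polyIC, against 0.90, 0.748 and 0.724 in controls, so each polyIC library was shallower than each control. The ribosomal RNA sequence annotated as Mir6236 took 19.3%, 15.8% and 17.5% of the FPKM total with polyIC, against 4.97%, 11.6% and 15.7% in controls. Ptprc, the CD45 gene used for the capture, had 379, 416 and 371 FPKM with polyIC, against 206, 251 and 261 FPKM in controls (log2 change 0.7, SE 0.177, adjusted p = 0.0531), while the hepatocyte gene Alb had 640.2, 934 and 978 FPKM with polyIC, against 1601, 1315 and 495 FPKM in controls. In a principal component analysis of the 6 libraries, component 1 (47.7% of the variance) placed polyIC at 39.7, 20.6 and 29.9, against -54.2, -36.1 and 0.08 in controls. Control replicate 2 stood apart from the other 2. Its log values correlated across genes at 0.914 and 0.930 with the other controls and at 0.924 to 0.942 with the polyIC libraries, and genes are not independent replicates. Summed over a list of Kupffer cell genes it had 3066 FPKM, against 11904 and 12858 FPKM in the other controls, and over hepatocyte genes 3013 FPKM against 10301 and 9352 FPKM. Depth, the Mir6236 share and the carried liver cell RNA moved with treatment or with that library, and their part in the results was not tested.

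Of 11978 genes tested on log2(FPKM + 1) with limma, 435 passed an adjusted p of 0.05 (3.63%). With polyIC 295 were higher (2.46%) and 140 lower (1.17%). At an unadjusted p under 0.05 there were 2655. The polyIC and control libraries did not overlap for any of the 435, and over all genes polyIC lay wholly above in 16.2% and wholly below in 12.4%. Among the higher genes 223 changed by more than 1 on the log2 scale and 49 by more than 2, and among the lower genes 81 and 23. The median log2 change was 1.35 in the higher genes, -1.05 in the lower genes and -0.01 over all genes tested. Of the called genes 124 belonged to at least 1 of 50 lists of immune, liver and pathway genes, and 311 belonged to none. In bulk RNA such as this, more cells of a type and more RNA per cell cannot be told apart.

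**Figure D1:**
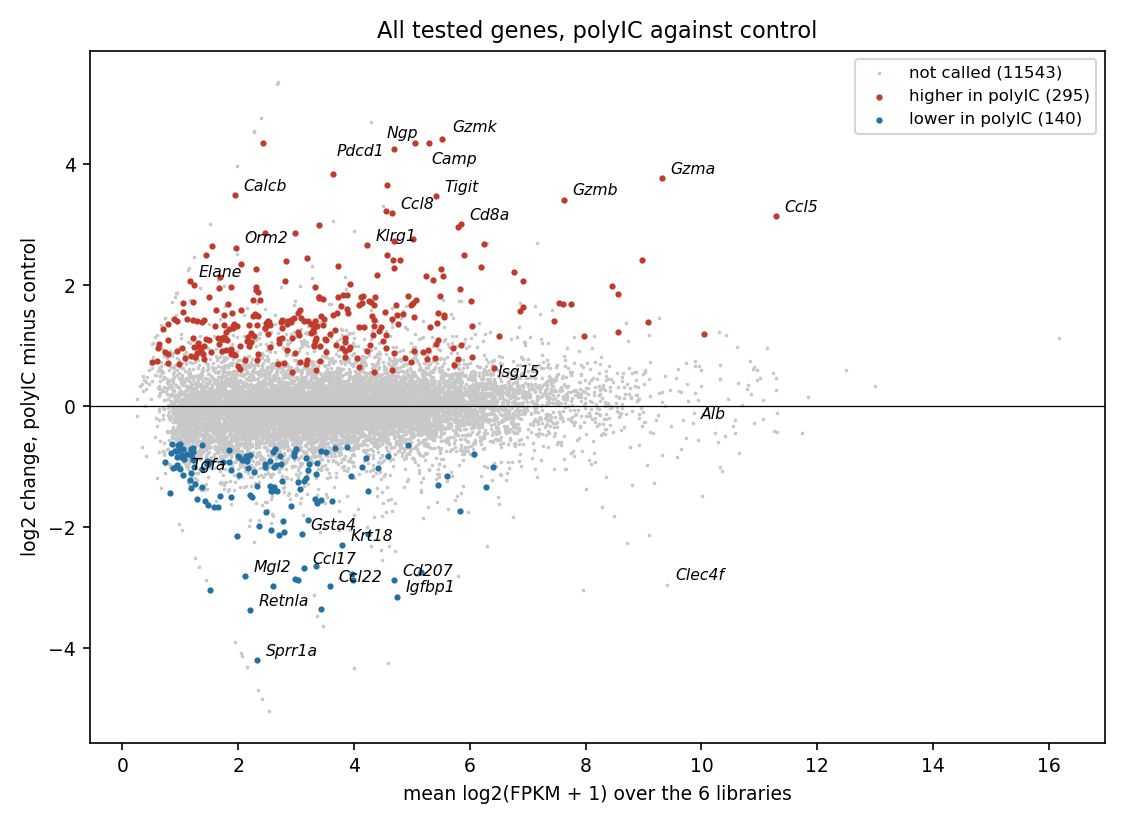
Log2 change (polyIC minus control, vertical axis) against the mean log2(FPKM + 1) of the 6 libraries (horizontal axis) for the 11978 genes tested, with 295 genes higher in polyIC in red, 140 lower in blue and the rest in grey. Granzyme genes and Ccl5 combine a large change with a high level, while Clec4f, a Kupffer cell gene, lies far below 0 in grey and was not called.

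The number of calls depended on single libraries. Left out in turn, polyIC replicates 0, 1 and 2 gave 42, 154 and 110 calls, and control replicates 0 and 1 gave 93 and 45. Without control replicate 2 there were 1871 calls, 686 higher and 1185 lower, and all 435 were among them. The sign of the change held for all 435 in each of these 6 fits, as it must where the groups do not overlap. In all 6 fits 34 genes were called, 23 higher and 11 lower. The higher ones were Gzma, Crtam, Klrg1, Klra19, Cd244, Sh2d1b1, Sh2d1b2, Cd200r4, Orm2, Elane, Mpo, Fcnb, Car2, Htra1, Osbpl3, Cysltr2, Heatr9, Khdc1a, Sdcbp2, 2200002D01Rik, A430046D13Rik, Gm12596 and Gm156. Among the lower ones were Sprr1a, Mgl2, Ccl17, Tgfa, Gsta4, Krt8, Krt18, Fam213a, Gm17745 and Mir760. The range of calls over the same 6 fits is given for some of the groups of genes described here. In none of the lists with a range did another fit call more members than that without control replicate 2. Mir760, a microRNA gene, was listed at 0 in each polyIC library, against 7.86, 10.9 and 4.21 FPKM in controls. Entries at 0 in a whole group but at 5 FPKM or more in every library of another were left out as failed estimates. Mir760 stayed in with a control at 4.21 FPKM, so its zeros may be a failed estimate too. A gene can stand in several lists, as Gzma and Prf1 do in the granule and NK cell lists.

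**Figure D2:**
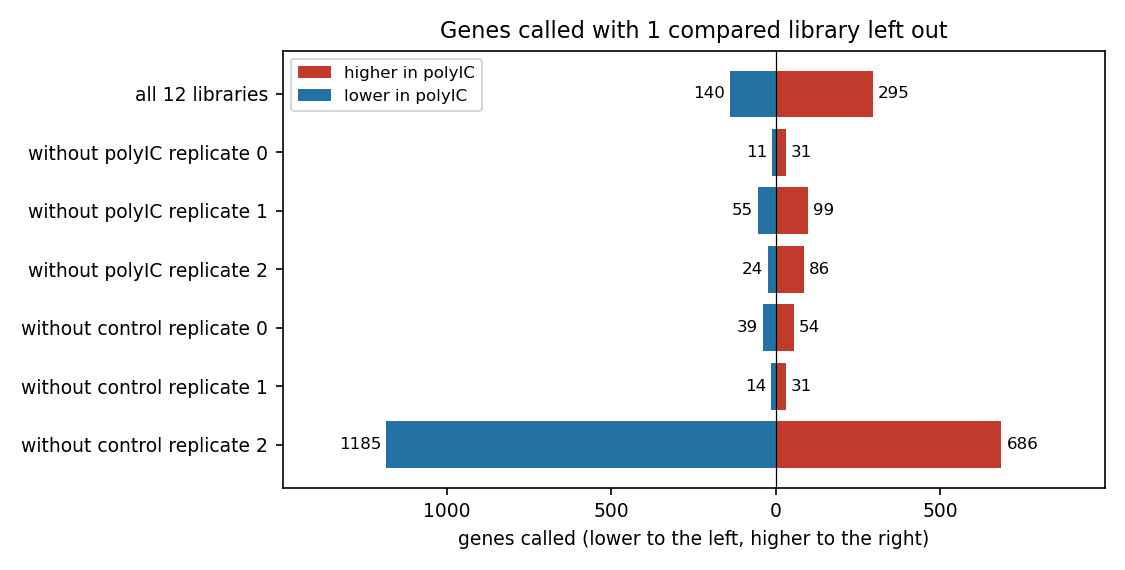
Number of genes called lower (blue, left of 0) and higher (red, right of 0) in polyIC with all 12 libraries in the fit and with each of the 6 compared libraries left out. Leaving out any polyIC library or either of the first 2 controls lowers the count to between 42 and 154, and leaving out control replicate 2 raises it to 1871.

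No member of 2 lists, of double-stranded RNA sensing genes and of type I interferon-stimulated genes, was called at the time of sampling. Genes that interferon can also induce but that stand only in other lists are not counted here. Of 30 genes that sense double-stranded RNA or pass on its signal, limma called 0, with 2 at an unadjusted p under 0.05, and of 41 tested type I interferon-stimulated genes (42 in the list) it called 0, with 5 under that p. Their median log2 changes were -0.14 and 0.01. Tlr3, the endosomal sensor, had 7.69, 12.7 and 15 FPKM with polyIC, against 19.5, 13.6 and 14.6 FPKM in controls (log2 change -0.43, SE 0.359, adjusted p = 0.501), and Ifih1, which encodes MDA5, had 18.7, 17.8 and 15.3 FPKM with polyIC, against 19.3, 18.1 and 9.48 FPKM in controls (log2 change 0.19, SE 0.265, adjusted p = 0.699). Both sensors overlapped between the groups.

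Isg15, a ubiquitin-like antiviral protein whose promoter is printed above with its interferon elements, had 110.0, 96.2 and 75.3 FPKM with polyIC, against 61.8, 87.9 and 60.5 FPKM in controls (log2 change 0.42, SE 0.631, adjusted p = 0.728). Ifit1, which binds viral RNA, had 20.1, 20.2 and 19 FPKM with polyIC, against 11.9, 13 and 10.03 FPKM in controls (log2 change 0.72, SE 0.369, adjusted p = 0.273). For Ifit1 each polyIC library lay above each control, and the change still missed the threshold. The largest difference in each direction of the interferon list was that of Siglec1, a macrophage lectin, at log2 -1.66 with adjusted p = 0.156, and of Ifi44 at log2 0.84 with adjusted p = 0.0836. Without control replicate 2, 3 interferon-stimulated genes and 2 sensing genes were called, each lower in polyIC, and the other 5 fits called 0. The last polyIC injection preceded euthanasia by 2 days according to the protocol.

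**Figure D3:**
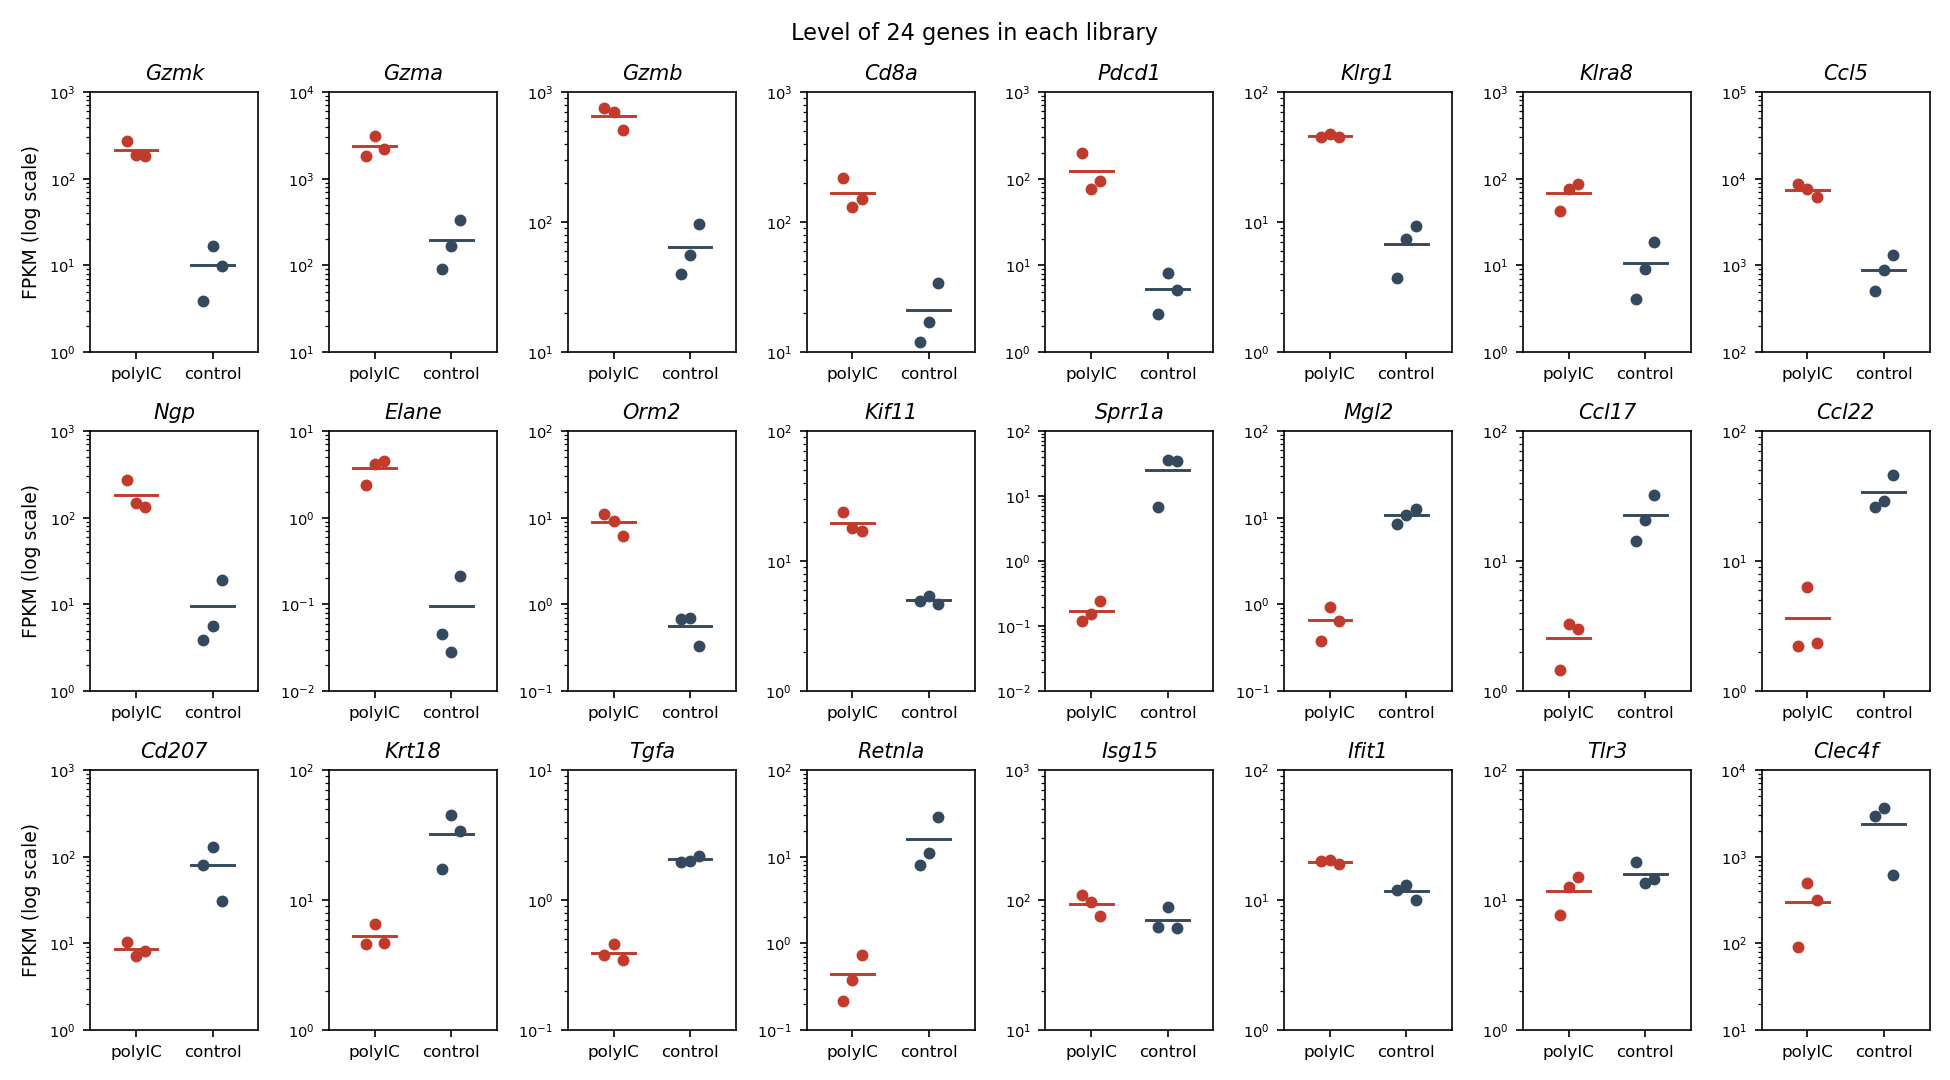
FPKM of 24 genes (log axes, each panel with its own range) in the 3 polyIC libraries (red, left) and the 3 control libraries (dark, right); lines are arithmetic means. Genes of killer lymphocytes and of neutrophil granules lie apart with polyIC on top, Sprr1a to Retnla lie apart with control on top, and the groups of Isg15 and Tlr3 overlap.

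Genes of the interferon gamma response, which include the guanylate-binding GTPases, were called in 1 of 28 tested (30 in the list), a share near the 2.46% of all genes. That gene was Gbp10, a member of a family of near-identical copies, at 3.45, 3.43 and 2.69 FPKM with polyIC, against 0.42, 0.522 and 0.892 FPKM in controls (log2 change 1.39, SE 0.304, adjusted p = 0.0343). It was called in 1 of the 6 fits with a library left out, that without control replicate 2. Ifng itself, the cytokine of activated T and NK cells, had 35.2, 34.8 and 21.6 FPKM with polyIC, against 8.52, 13.6 and 16.8 FPKM in controls (log2 change 1.19, SE 0.339, adjusted p = 0.0771). Its groups did not overlap, and it did not pass. Of 24 tested MHC class I and immunoproteasome genes (25 in the list) limma called 0, with 4 at an unadjusted p under 0.05 and a median of 0.27. MHC class II genes were called in 0 of 12 tested (14 in the list), with 1 at an unadjusted p under 0.05, and all 12 had log2 changes below 0.

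Genes of cytotoxic granules were higher with polyIC, and the granzymes Gzma and Gzmb were among the most abundant messages that rose. These granules carry perforin, which opens the target membrane, and granzymes, the proteases that enter through it. Of 20 such genes 11 rose and 0 fell, with a median log2 change of 1.48. Gzma, a tryptase, had 1840.5, 3147 and 2226 FPKM with polyIC, against 91.9, 165 and 331 FPKM in controls (log2 change 3.77, SE 0.45, adjusted p = 0.00353). Gzmb, which cleaves after aspartate and starts apoptosis, had 755, 706 and 509 FPKM with polyIC, against 40.1, 55.4 and 95.8 FPKM in controls (log2 change 3.42, SE 0.522, adjusted p = 0.01). In both genes the lowest polyIC library was over 5 times the highest control. Gzmk, a granzyme of memory and exhausted-like CD8 T cells, had 270.2, 188 and 183 FPKM with polyIC, against 3.89, 16.9 and 9.89 FPKM in controls (log2 change 4.42, SE 0.728, adjusted p = 0.012), and the mean of its polyIC libraries was 20.9-fold that of controls. Prf1, perforin, had 77.4, 98.6 and 76.3 FPKM with polyIC, against 12.1, 17.9 and 31.4 FPKM in controls (log2 change 2.08, SE 0.375, adjusted p = 0.0153).

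Nkg7, a granule membrane protein needed for degranulation, had 1595, 967 and 1028 FPKM with polyIC, against 139, 222 and 332 FPKM in controls (log2 change 2.42, SE 0.444, adjusted p = 0.0162). Cst7, cystatin F, an inhibitor of granule cathepsins, had 178, 121 and 128 FPKM with polyIC, against 14.9, 20.9 and 44 FPKM in controls, with a log2 change of 2.49. Fasl, the ligand of the death receptor Fas, changed by log2 1.81, Ctsw, a cathepsin of killer cells, by 1.57, and Crtam, an adhesion molecule of activated CD8 and NK cells, by 1.45. Serpinb9 and Serpinb6b, inhibitors that guard cells against their own granzymes, changed by log2 0.93 and 1.73. Gzmc, Gzmm, Srgn, Rab27a, Unc13d, Stx11, Lyst, Lamp1 and Serpinb9b were not called, and Lamp1, the lysosomal membrane protein, was the only member below 0 (-0.64). Leaving out 1 library gave 2 to 13 calls higher, fewest without polyIC replicate 0, and 1 lower without control replicate 2.

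Summed over the 20 genes, the level was 6699.7, 7114 and 5989 FPKM with polyIC, against 1778, 2303 and 2514 FPKM in controls. The letters TGTGGT were in 11 of 20 promoter windows of these genes (55.0%, with 17 of 20 genes matched) and in 8 of 15 windows of the inhibitory receptors described further on (53.3%, 13 of 16 genes), against 16.8% of 32851 windows in the RefSeq table. Other lists described below that also rose had lower shares. These were 7 of 43 windows of mitosis genes (16.3%, 41 of 46 genes) and 1 of 12 of Ly49 receptors (8.33%, 10 of 11 genes). Gzmb holds the letters in 2 places, Gzma and Prf1 in 1, Gzmk in none. Runx3 itself had 30.6, 24.2 and 18 FPKM with polyIC, against 12.9, 11.3 and 22.6 FPKM in controls and did not pass (log2 change 0.64, SE 0.304, adjusted p = 0.244).

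Genes of the T cell receptor and its signalling rose in 10 of 31 and fell in 0, with a median of 1.24. Cd8a, a chain of the CD8 coreceptor, had 218, 131 and 149.8 FPKM with polyIC, against 12.1, 17.2 and 34.3 FPKM in controls (log2 change 3.01, SE 0.532, adjusted p = 0.015), and its partner Cd8b1 had 259.7, 219.6 and 225 FPKM with polyIC, against 27.8, 42.3 and 101 FPKM in controls (log2 change 2.22, SE 0.492, adjusted p = 0.035). The coreceptor of helper cells, Cd4, had 39.8, 40.2 and 36.9 FPKM with polyIC, against 26.1, 42.5 and 61.8 FPKM in controls (log2 change -0.07, SE 0.269, adjusted p = 0.903), with overlapping groups. Cd3g, a signalling chain of the receptor complex, had 449, 400.3 and 317 FPKM with polyIC, against 66.3, 116 and 214 FPKM in controls (log2 change 1.7, adjusted p = 0.045). Cd3e and Cd3d had log2 changes of 1.71 and 1.65, about the size of Cd3g, and did not pass (adjusted p = 0.0552 and 0.0732).

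The kinases Lck and Zap70, which start the signal, rose by log2 1.64 and 1.5. Sh2d1a encodes SAP, the adaptor of SLAM family receptors, and Sh2d2a encodes TSAd, an adaptor of Lck. They rose by log2 2.14 and 2.42. Themis, a regulator of receptor signal strength in thymocytes, rose by log2 2.02, Ubash3a by 1.44 and Cd226, an activating receptor for nectin-like ligands, by 1.54. Between 0 and 23 were called with a library left out. The count was 0 without polyIC replicate 0, control replicate 0 or control replicate 1, and the median stayed between 0.95 and 1.6 in the 6 fits.

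Inhibitory receptors, which restrain T cells after repeated stimulation, rose in 7 of 16 and fell in 0. Pdcd1, which encodes PD-1, had 197, 76.3 and 93 FPKM with polyIC, against 2.77, 8.12 and 5.17 FPKM in controls (log2 change 4.24, SE 0.752, adjusted p = 0.015), a 22.9-fold difference of means. PolyIC replicate 0 was the highest, and all 3 polyIC libraries were above every control. Tigit, a receptor for CD155, had 180.2, 104 and 153 FPKM with polyIC, against 6.65, 15.9 and 15.5 FPKM in controls (log2 change 3.47, SE 0.614, adjusted p = 0.015). Ctla4, which competes with CD28 for B7 ligands, had 43.4, 18.8 and 28.8 FPKM with polyIC, against 1.64, 2.74 and 4.24 FPKM in controls (log2 change 3.0, SE 0.578, adjusted p = 0.0204).

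Cd160, Cd244 and Cd96 are receptors shared by CD8 T cells and NK cells. They rose by log2 1.83, 1.75 and 1.67, and Cd200r1, an inhibitory receptor of myeloid and T cells, by 0.89. Lag3, a receptor for MHC class II, had 147, 90.3 and 77.6 FPKM with polyIC, against 21.3, 27.9 and 43.7 FPKM in controls, and Havcr2, which encodes TIM-3, had 37.2, 37.2 and 33.7 FPKM with polyIC, against 13.3, 15.5 and 18 FPKM in controls. Neither overlapped between groups and neither passed (adjusted p = 0.0869 and 0.0771). Cd274, the gene of PD-L1, differed by log2 0.04 with adjusted p = 0.963, and Btla by -0.37 with adjusted p = 0.588. The left-out fits called 1 to 9 members, 1 without polyIC replicate 0.

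Of 29 tested transcription factors of lymphocytes (30 in the list), 6 rose and 0 fell. Tox, a factor of chronically stimulated CD8 T cells, had 97.1, 55.2 and 65.6 FPKM with polyIC, against 4.64, 7.14 and 8.88 FPKM in controls (log2 change 3.22, SE 0.505, adjusted p = 0.0115). Nr4a2, an orphan nuclear receptor induced by receptor stimulation, had 24.9, 9.79 and 10.5 FPKM with polyIC, against 1.03, 1.1 and 0.981 FPKM in controls (log2 change 2.86, SE 0.511, adjusted p = 0.015), while its relatives Nr4a1 and Nr4a3 differed by log2 -0.09 and -0.41 without passing. Eomes, the T-box factor of NK and memory CD8 T cells, had 22.7, 21.5 and 13.9 FPKM with polyIC, against 2.26, 4.77 and 5.97 FPKM in controls (log2 change 1.97, SE 0.377, adjusted p = 0.0197). Tbx21, the other T-box factor, had a log2 change of 0.98 and did not pass (adjusted p = 0.0973).

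Zbtb32, Ikzf2 and Ikzf3 rose by log2 1.55, 1.49 and 1.48. Tcf7 and Lef1, factors of naive and stem-like T cells, differed by log2 0.08 and -0.27, and neither passed. Leaving out 1 library gave 0 to 9 calls higher, 0 without polyIC replicate 0 or control replicate 1, and 2 lower without control replicate 2.

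Regulatory T cell markers rose in 5 of 12 tested (14 in the list). They were Foxp3, the defining factor of the lineage, at 9.54, 6.51 and 7.57 FPKM with polyIC, against 0.958, 1.55 and 2.55 FPKM in controls (log2 change 1.75, SE 0.331, adjusted p = 0.0188), and Tnfrsf4, the OX40 gene, at 25.2, 14.6 and 17.9 FPKM with polyIC, against 3.02, 6.12 and 5.33 FPKM in controls (log2 change 1.81, SE 0.412, adjusted p = 0.0387), with Ikzf2, Ctla4 and Klrg1. All of these but Foxp3 are also expressed by activated effector cells, and Il2ra, which encodes the interleukin-2 receptor alpha chain, differed by log2 0.01. Icos and Capg each differed by log2 0.2 with overlapping groups. Itgae was the only tested member below 0, at log2 -0.65 with adjusted p = 0.105 and polyIC below every control. Among 17 tested lymphocyte cytokines (26 in the list), only Tnfsf8, the CD30 ligand gene, and Tnfsf10, the TRAIL gene, passed, at log2 1.38 and 1.02. The left-out fits called 1 to 6 regulatory T cell markers and 0 to 3 cytokines.

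NK cell markers rose in 12 of 28 and fell in 0, with a median of 1.44, and 27 of the 28 were above 0. NK cells kill without prior priming and read MHC class I through paired inhibitory and activating receptors of the killer lectin family. Klrg1, a lectin of mature NK and effector CD8 T cells, had 45.4, 47.9 and 45 FPKM with polyIC, against 3.72, 7.42 and 9.36 FPKM in controls (log2 change 2.66, SE 0.292, adjusted p = 0.003). Its polyIC libraries spanned less than 3 FPKM. Klre1 had 114, 209 and 175 FPKM with polyIC, against 19.3, 27.3 and 61.4 FPKM in controls (log2 change 2.29, SE 0.441, adjusted p = 0.0201). Klrd1, the CD94 chain, and Klrc1, the inhibitory NKG2A chain that pairs with it, rose by log2 1.7 and 1.93. Cd7, an adhesion and costimulatory protein of T and NK cells, had 897, 702 and 543 FPKM with polyIC, against 132, 142 and 293 FPKM in controls (log2 change 1.98, SE 0.396, adjusted p = 0.0239). Ncr1, the NKp46 receptor that defines NK cells, had 73, 145 and 106 FPKM with polyIC, against 22.3, 29.5 and 42.8 FPKM in controls and did not pass (adjusted p = 0.0857), and Klrb1c, the NK1.1 antigen, did not pass either, at log2 1.2 with adjusted p = 0.14. In the left-out fits 3 to 22 were called, 3 without polyIC replicate 0, control replicate 0 or control replicate 1.

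The Ly49 receptors, MHC class I receptors of mouse NK cells, rose in 6 of 11 tested members (14 in the list). Klra8, an activating receptor known for recognising a cytomegalovirus protein, had 41.9, 76.1 and 87 FPKM with polyIC, against 4.07, 9.02 and 18.7 FPKM in controls (log2 change 2.73, SE 0.543, adjusted p = 0.0237). Klra7, an inhibitory receptor, had 56.5, 106 and 96.7 FPKM with polyIC, against 6.65, 11.9 and 18.2 FPKM in controls (log2 change 2.77, SE 0.543, adjusted p = 0.0219). Klra4, Klra6, Klra3 and Klra9 rose by log2 2.46, 2.4, 2.31 and 2.16, and Klra19, outside that list, by 1.81. In the 6 called members the first polyIC library was the lowest of the 3. The genes are near-identical copies side by side, so how reads were shared between them is uncertain. The fits with 1 library left out called 0 to 8, and 0 without control replicate 0, control replicate 1, polyIC replicate 1 or polyIC replicate 2.

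A small family of adaptors rose beside them. Sh2d1b2, which encodes the adaptor ERT, had 3.68, 8.61 and 4.97 FPKM with polyIC, against 0, 0 and 0.493 FPKM in controls (log2 change 2.5, SE 0.288, adjusted p = 0.00328), and its neighbour Sh2d1b1, which encodes EAT-2, had 20.3, 23.6 and 20.4 FPKM with polyIC, against 5.46, 6.9 and 7.88 FPKM in controls (log2 change 1.54, SE 0.23, adjusted p = 0.00995). Both carry SLAM family signals in mouse NK cells, and both were called in each of the 6 fits. Hcst, which encodes DAP10, the signalling partner of the NKG2D receptor, had 392, 390.3 and 341 FPKM with polyIC, against 126, 171 and 213 FPKM in controls (log2 change 1.17, SE 0.213, adjusted p = 0.016). Tyrobp, which encodes DAP12, differed by log2 -0.11 and did not pass. Gamma delta T cell and innate lymphoid markers were called in 0 of 10 tested (21 in the list), with 4 at an unadjusted p under 0.05.

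Genes of mitosis were higher with polyIC. Of 46 in the list, 22 rose and 0 fell, all 46 had log2 changes above 0, and in 44 the polyIC libraries lay above every control, where 16.2% of all genes did so. The median was 1.21. Kif11, the motor that pushes spindle poles apart, had 23.9, 18 and 17 FPKM with polyIC, against 4.94, 5.4 and 4.7 FPKM in controls (log2 change 1.77, SE 0.259, adjusted p = 0.00856). Nusap1, a spindle-associated protein, had 29.2, 21.7 and 20.1 FPKM with polyIC, against 6.12, 7.45 and 6.57 FPKM in controls (log2 change 1.66, SE 0.252, adjusted p = 0.01). Ccna2, cyclin A, had 50.1, 35.6 and 33.2 FPKM with polyIC, against 12, 13.5 and 12.2 FPKM in controls (log2 change 1.56, SE 0.286, adjusted p = 0.016). The controls were close together in these genes, with less than 2 FPKM between the lowest and the highest.

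Ube2c, the ubiquitin-conjugating enzyme of the anaphase-promoting complex, rose by log2 1.75, Ccnb2 and Ccnb1, the mitotic B cyclins, by 1.68 and 1.34, Ncapg, a condensin subunit, by 1.54, and Top2a, which untangles sister chromatids, by 1.52. Mki67, the proliferation marker, had 14.6, 13.9 and 9.96 FPKM with polyIC, against 7.45, 5.16 and 6.31 FPKM in controls and did not pass (log2 change 0.91, SE 0.255, adjusted p = 0.0732), and neither did Cdk1 (log2 1.21, adjusted p = 0.0933). In the left-out fits 0 to 24 were called, 0 without polyIC replicate 0, which had the highest sum. Summed over the list, the level was 927, 677 and 594 FPKM with polyIC, against 268, 302 and 229 FPKM in controls.

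Genes of DNA replication were called in 1 of 37, near the background of 2.46%. The gene was Hells, a chromatin remodeller, at log2 1.31. Of the 37, 36 were above 0 with a median of 0.69, and 30 had polyIC above every control, where 16.2% of all genes did. The letters TTTGAA were found in 33 of 43 promoter windows of the mitosis list (76.7%, 41 of 46 genes matched), against 9.09% of the windows of the DNA replication list (30 of 37 genes) and 17.9% of all windows. The same letters were in 8 of 12 windows of the Ly49 family (66.7%, 10 of 11 genes), a family of near-identical copies, in 33.3% of those of the inhibitory receptors and in 20% of those of the cytotoxic granule list. The CCAAT box, read as CCAAT or ATTGG, was in 72.1% of mitosis windows, 60.6% of replication windows and 37.4% of all windows. Kif11 has the TTTGAA letters in 1 place, Top2a and Ccnb2 in 2, and Ccnb1 rose without them.

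Chemokines, the attractants that place immune cells in tissue, moved in both directions. Of 25 tested ligands (33 in the list), 3 rose and 5 fell. Ccl5, which draws T and NK cells, was among the most abundant messages, at 8762, 7625 and 6091 FPKM with polyIC, against 509, 879.8 and 1305 FPKM in controls (log2 change 3.15, SE 0.533, adjusted p = 0.0135). Ccl3, an inflammatory chemokine, had 266, 211 and 124 FPKM with polyIC, against 18.4, 38 and 34.5 FPKM in controls (log2 change 2.68, SE 0.643, adjusted p = 0.0457), and Ccl4, a close relative of Ccl3, had 542, 357 and 247 FPKM with polyIC, against 33.5, 71.5 and 70.7 FPKM in controls and missed the threshold (log2 change 2.69, SE 0.703, adjusted p = 0.0598). Ccl8, a chemokine made by macrophages, had 74.8, 64.8 and 86.9 FPKM with polyIC, against 5.03, 19.2 and 3.73 FPKM in controls (log2 change 3.19, SE 0.514, adjusted p = 0.012).

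Ccl17 and Ccl22 are the ligands of CCR4, a receptor of regulatory and type 2 helper T cells, and both fell. Ccl22 had 2.21, 6.35 and 2.36 FPKM with polyIC, against 26.2, 29.1 and 45.9 FPKM in controls (log2 change -2.97, SE 0.475, adjusted p = 0.012), and Ccl17 had 1.45, 3.31 and 2.99 FPKM with polyIC, against 14.4, 20.8 and 32.2 FPKM in controls (log2 change -2.68, SE 0.327, adjusted p = 0.00398). Cxcl13, the B cell attractant of follicles, had 0.599, 4.09 and 3.71 FPKM with polyIC, against 57.2, 39 and 16.5 FPKM in controls (log2 change -3.35, SE 0.687, adjusted p = 0.0264). Ccl24, an eosinophil attractant, had 7.87, 18 and 14.7 FPKM with polyIC, against 136, 166 and 33.7 FPKM in controls (log2 change -2.74, SE 0.654, adjusted p = 0.0451), and control replicate 2 was far below the other controls. Cxcl14, made in many epithelia, had 0.583, 0.693 and 0.469 FPKM with polyIC, against 4.62, 5.75 and 2.08 FPKM in controls (log2 change -1.63, SE 0.261, adjusted p = 0.012).

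The interferon-induced CXCR3 ligands Cxcl9, Cxcl10 and Cxcl11 differed by log2 0.4, 0.06 and 0.38, and none passed (adjusted p = 0.682, 0.963 and 0.66). Among 21 tested chemokine receptors (23 in the list), only Cx3cr1, the fractalkine receptor of monocytes and effector lymphocytes, rose, at 63.9, 53.5 and 45.1 FPKM with polyIC, against 18.3, 20.8 and 16.9 FPKM in controls (log2 change 1.48, SE 0.259, adjusted p = 0.015). Cxcr6, a receptor of liver-resident lymphocytes, had a log2 change of 1.58 with adjusted p = 0.064. With 1 library left out, 0 to 4 ligands were called higher and 1 to 6 lower, and of the lower ones only Ccl17 was called in all 6 fits.

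Genes of neutrophil granules rose in 12 of 18 tested (20 in the list) and fell in 0. Among the 12, Elane, Mpo, Prtn3, Fcnb and Itgb2l were below 1 FPKM in each control. Of the 6 libraries, only those with polyIC brought them to the filter of 1 FPKM in 3 libraries. The share called is therefore partly set by the filter. Neutrophil granule genes are transcribed in neutrophil precursors and are mostly silent in mature blood neutrophils. Ngp, neutrophilic granule protein, had 272, 149 and 134 FPKM with polyIC, against 3.84, 5.58 and 19.2 FPKM in controls (log2 change 4.36, SE 0.776, adjusted p = 0.015). Camp, the cathelicidin, had 194, 144 and 117 FPKM with polyIC, against 2.37, 5.36 and 17.2 FPKM in controls (log2 change 4.35, SE 0.727, adjusted p = 0.0125), and Ltf, lactoferrin, had 71.8, 42 and 32.1 FPKM with polyIC, against 1.31, 2.05 and 3.99 FPKM in controls (log2 change 3.84, SE 0.578, adjusted p = 0.01). In each of these secondary granule genes, control replicate 2 was the highest control and stayed below every polyIC library.

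Elane, Mpo and Prtn3, genes of the primary granules that promyelocytes make, were below 1 FPKM in each control. Elane, neutrophil elastase, had 2.39, 4.21 and 4.51 FPKM with polyIC, against 0.0452, 0.0279 and 0.211 FPKM in controls (log2 change 2.07, SE 0.218, adjusted p = 0.003), and Mpo, myeloperoxidase, had 1.82, 6.25 and 4.09 FPKM with polyIC, against 0.146, 0.0164 and 0.399 FPKM in controls (log2 change 2.0, SE 0.283, adjusted p = 0.00815). Prtn3, the proteinase gene next to Elane, had 3.87, 6.75 and 5.64 FPKM with polyIC, against 0.551, 0.509 and 0.817 FPKM in controls (log2 change 1.96, adjusted p = 0.0219). Lcn2, an iron-siderophore trap, rose by log2 2.26, Mmp8, neutrophil collagenase, by 1.84, Fcnb, a lectin of the complement system, by 1.71, Cd177 by 1.42 and Chil3, a chitinase-like protein also made by monocytes, by 2.95. In the 6 fits with 1 library left out, 3 to 13 were called, 3 without control replicate 1.

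Genes of mature neutrophils did otherwise. Of 21 tested (26 in the list), 1 rose, Stfa1, one of several near-identical stefin A genes, and the median was -0.08. S100a8 had 2545, 2229 and 1563 FPKM with polyIC, against 463, 1124 and 1478 FPKM in controls and S100a9 had 2300.0, 2429 and 1289 FPKM with polyIC, against 399.6, 1153 and 1219 FPKM in controls, and neither passed (adjusted p = 0.228 and 0.273). Csf3r, the G-CSF receptor, had 18.5, 26.6 and 11.2 FPKM with polyIC, against 29.2, 38.2 and 33.8 FPKM in controls, with polyIC below every control and adjusted p = 0.124. The difference between the granule list and the mature list was not tested as such. Orm2, an acute phase protein made mainly by hepatocytes, had 11.2, 9.19 and 6.16 FPKM with polyIC, against 0.679, 0.703 and 0.329 FPKM in controls (log2 change 2.62, SE 0.214, adjusted p = 0.000429), and Saa3, a serum amyloid A made outside the hepatocyte, had 108, 69.6 and 75.4 FPKM with polyIC, against 2.21, 4.25 and 16.4 FPKM in controls (log2 change 3.66, SE 0.87, adjusted p = 0.045). Orm2 was called in all 6 fits, Saa3 in 1.

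Classical monocyte genes rose in 3 of 18, namely Chil3, the coagulation factor gene F13a1 at 30.1, 44.4 and 25.1 FPKM with polyIC, against 5.85, 9.08 and 11.3 FPKM in controls (log2 change 1.81, SE 0.388, adjusted p = 0.0309), and Ms4a6b at 409.8, 311 and 337 FPKM with polyIC, against 82.8, 113 and 134 FPKM in controls (log2 change 1.69, SE 0.385, adjusted p = 0.0387). Ly6c2 and Ccr2, the markers of the subset, had log2 changes of 0.67 and 1.11 and did not pass (adjusted p = 0.467 and 0.0667). The count was 6 without control replicate 2 and 0 without any other of the 6 libraries. Of 17 patrolling monocyte genes 2 rose, Cx3cr1 and Spn.

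Kupffer cell genes were called in 0 of 21 tested (22 in the list) by limma, with 9 at an unadjusted p under 0.05. Clec4f, the lectin that defines the cells in mice, had 91.6, 493 and 315 FPKM with polyIC, against 2920.2, 3683 and 619.8 FPKM in controls (log2 change -2.95, SE 0.938, adjusted p = 0.102). Timd4, a receptor for dying cells, had 13.6, 54.2 and 53.3 FPKM with polyIC, against 287, 278 and 64.7 FPKM in controls, and Vsig4, a complement receptor, had 81.4, 289 and 291 FPKM with polyIC, against 1464, 1382 and 377 FPKM in controls. In each of these, polyIC was below every control, and control replicate 2 lay nearer to polyIC than to the other controls. Marco, a scavenger receptor, went the other way, at 107, 436 and 332 FPKM with polyIC, against 167, 137 and 27.6 FPKM in controls (log2 change 1.52, adjusted p = 0.341). Spic was also higher with polyIC (log2 change 1.01, adjusted p = 0.209) and is among the 9 at an unadjusted p under 0.05.

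Without control replicate 2, 13 of the 21 were lower in polyIC, and in each of the other 5 fits 0 were called. The sums over the list were 2578, 3469.7 and 3418 FPKM with polyIC, against 11904, 12858 and 3066 FPKM in controls. Complement genes made by macrophages were called in 0 of 17, with 6 at an unadjusted p under 0.05, or 7 lower without control replicate 2. Among the 6, Itgam was higher with polyIC, at log2 0.56. Sinusoidal endothelial genes were called in 0 of 27 tested (28 in the list), with 3 under that p, or 12 lower without control replicate 2. Among 26 tested genes of suppressive and lipid-handling macrophages (30 in the list), only Retnla passed. Retnla, a secreted protein of alternatively activated macrophages, had 0.216, 0.381 and 0.729 FPKM with polyIC, against 8.0, 11 and 29 FPKM in controls (log2 change -3.37, SE 0.525, adjusted p = 0.0113), and it was called in 5 of the 6 fits.

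**Figure D4:**
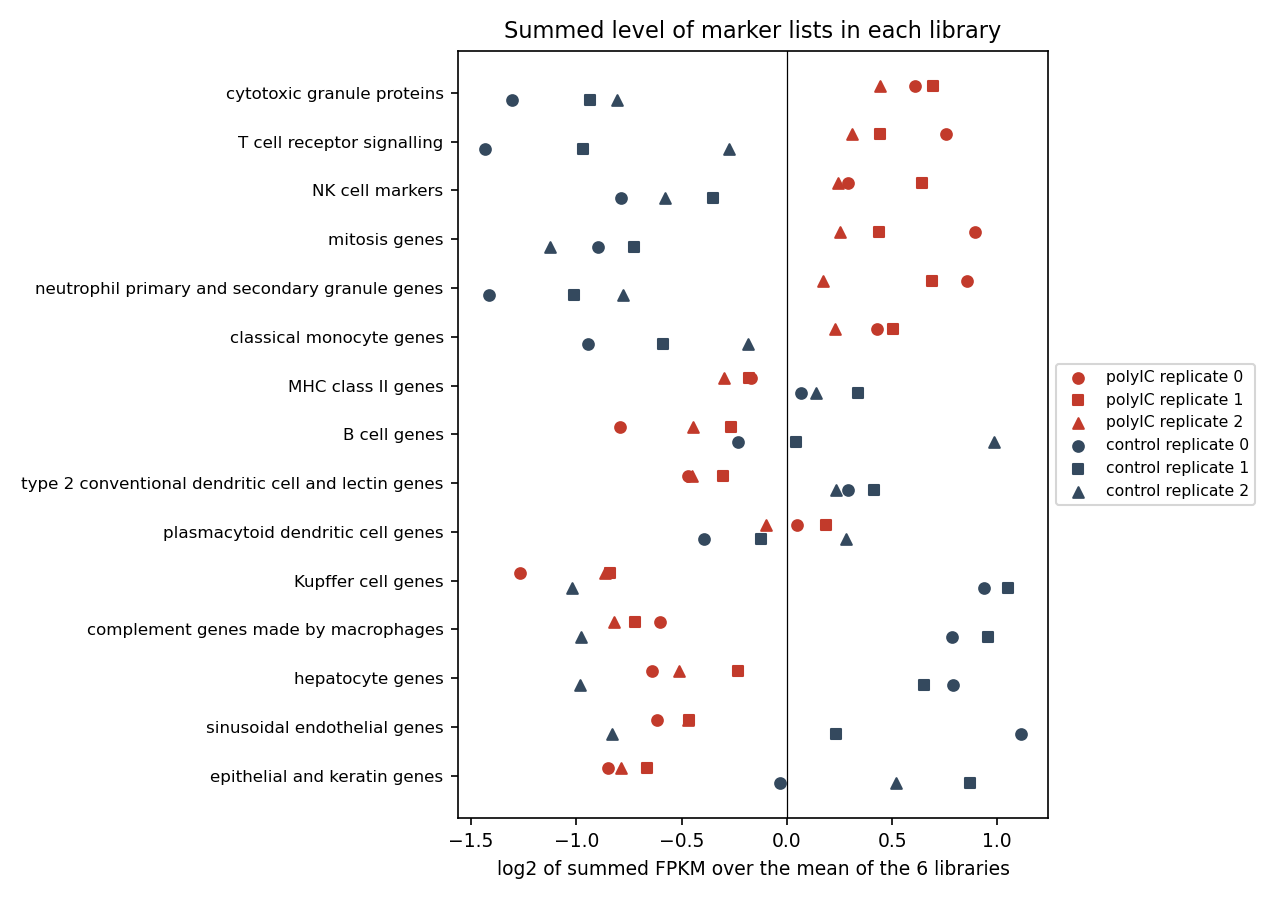
Summed FPKM of 15 marker lists in each library, as log2 over the mean of the 6 libraries (horizontal axis), with polyIC in red above control in dark for each list and symbols for the replicate number. The T cell receptor, NK cell, mitosis and granule lists are separated with polyIC to the right, while in the Kupffer, complement, hepatocyte and endothelial lists control replicate 2 (dark triangle) lies close to the polyIC libraries.

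Dendritic cell genes were lower in 2 of their programmes. The mature, migrating state is marked by Ccr7 and by the genes a dendritic cell turns on when it carries antigen to T cells. Of 24 tested genes of that state (27 in the list) 8 fell and 2 rose, where 1.17% and 2.46% of all genes did. The 2 that rose, Ccl5 and Tnfrsf4, are also genes of activated T cells. Fscn1, an actin bundler of dendrites, had 4.64, 6.65 and 4.78 FPKM with polyIC, against 19.8, 15.1 and 17.9 FPKM in controls (log2 change -1.56, SE 0.278, adjusted p = 0.015). Cd83, a surface protein of mature dendritic cells, had 25.6, 31 and 24 FPKM with polyIC, against 74.8, 77.3 and 53.1 FPKM in controls (log2 change -1.3, SE 0.289, adjusted p = 0.035), and Il12b, the interleukin-12 p40 chain, had 0.973, 1.98 and 0.801 FPKM with polyIC, against 3.44, 7.06 and 5.61 FPKM in controls (log2 change -1.49, SE 0.314, adjusted p = 0.0295). Il4i1, an amino acid oxidase, Apol7c, Cacnb3 and Nudt17 fell, with log2 changes of -1.54, -1.32, -0.91 and -0.87, and Ccr7 did not pass at -0.87. With 1 library left out, 0 to 11 were called lower, 0 without control replicate 1 or polyIC replicate 0.

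Among 23 tested genes of type 2 conventional dendritic cells and their lectins (27 in the list), 5 fell and 0 rose. Mgl2, the CD301b lectin, had 0.379, 0.943 and 0.647 FPKM with polyIC, against 8.44, 10.7 and 12.7 FPKM in controls (log2 change -2.81, SE 0.307, adjusted p = 0.003). Cd209d, a DC-SIGN relative, had 2.46, 7.64 and 5.7 FPKM with polyIC, against 32.7, 27.9 and 81 FPKM in controls (log2 change -2.88, SE 0.557, adjusted p = 0.0204), and Cd207, langerin, had 10.3, 7.19 and 8.29 FPKM with polyIC, against 80.9, 129.9 and 30.6 FPKM in controls (log2 change -2.87, SE 0.478, adjusted p = 0.0125). Ccl17 and Tmem176a were the others, and the fits with 1 library left out called 2 to 6, 2 without polyIC replicate 0, control replicate 0 or control replicate 1. General genes of the subset, Sirpa, Flt3, Zbtb46 and Irf4, differed by log2 -0.28, -0.5, -0.29 and 0.05, and none passed.

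In type 1 conventional dendritic cells, which cross-present antigen to CD8 T cells, the 1 call of 17 was Cd8a, also a T cell gene. Xcr1, the receptor that defines the subset, had 7.04, 12.4 and 10.9 FPKM with polyIC, against 13.6, 11.7 and 17 FPKM in controls (log2 change -0.46, SE 0.355, adjusted p = 0.47). Of 20 plasmacytoid dendritic cell genes only Cd209d, shared with the lectin list, passed, and Siglech, the defining receptor, had 49, 115 and 77.5 FPKM with polyIC, against 117, 107 and 246 FPKM in controls with overlapping groups.

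B cell genes were called in 0 of 24 tested (27 in the list), with 14 at an unadjusted p under 0.05. All 24 were below 0, with a median of -0.92, and in 15 polyIC lay below every control, where 12.4% of all genes did. Cd79a, a chain of the B cell receptor, had 39.4, 67.6 and 58.8 FPKM with polyIC, against 83.6, 103 and 235 FPKM in controls (log2 change -1.22, SE 0.451, adjusted p = 0.148). Control replicate 2 was the highest library.

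Epithelial and keratin genes fell in 6 of 22 tested (41 in the list) and rose in 0. They are mainly genes of other cells than leukocytes, and Krt8 and Krt18 are the keratin pair of hepatocytes and bile duct cells. Krt8 had 1.59, 2.5 and 1.74 FPKM with polyIC, against 6.72, 15.7 and 12.6 FPKM in controls (log2 change -2.05, SE 0.275, adjusted p = 0.00696), and Krt18 had 4.63, 6.54 and 4.7 FPKM with polyIC, against 17.2, 45 and 33.8 FPKM in controls (log2 change -2.3, SE 0.326, adjusted p = 0.00815). Sprr1a, a cornified envelope protein induced in stressed epithelia, had 0.12, 0.154 and 0.245 FPKM with polyIC, against 6.75, 35.2 and 34.4 FPKM in controls (log2 change -4.2, SE 0.467, adjusted p = 0.003), the largest fall among the named genes, and its polyIC libraries were near 0. Tspan8, a tetraspanin of epithelial tumours, had 1.49, 1.78 and 2.97 FPKM with polyIC, against 10.1, 31.6 and 29.3 FPKM in controls (log2 change -2.88, SE 0.464, adjusted p = 0.012), and Tm4sf4, its distant relative of liver and bile duct, had 4.77, 4.02 and 6.33 FPKM with polyIC, against 18.5, 58.3 and 58.4 FPKM in controls (log2 change -2.78, SE 0.456, adjusted p = 0.012). Lad1, an anchoring filament protein, fell with a log2 change of -1.0. Sprr1a and Lad1 were below 1 FPKM in each polyIC library. Of the 6 libraries, only the controls brought them to the filter, so the share called is partly set by the filter. Of the 22 tested, 18 had log2 changes below 0 and 4 above. In 13 polyIC lay below every control and in 2 above, where 12.4% and 16.2% of all genes did. Epcam was 1 of the 2 above, at 8.17, 6 and 5.75 FPKM with polyIC, against 2.96, 3.58 and 4.57 FPKM in controls. It did not pass (log2 change 0.7, SE 0.182, adjusted p = 0.0586).

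Control replicate 0 was the lowest control in Krt8, Krt18, Sprr1a, Tspan8, Tm4sf4 and Lad1, and stayed above each polyIC library. Control replicate 2, low for hepatocyte genes, was not low here. With 1 library left out, 3 to 9 were called lower, 3 without polyIC replicate 0 or control replicate 1. Without control replicate 2, 1 was called higher. Of 34 hepatocyte genes, 1 fell. It was Igfbp1, a secreted binder of insulin-like growth factors that fasting induces, at 6.78, 6.07 and 12.2 FPKM with polyIC, against 46.6, 119 and 87.6 FPKM in controls (log2 change -3.15, SE 0.49, adjusted p = 0.0113), and its neighbour Igfbp3 had 3.66, 1.36 and 3.04 FPKM with polyIC, against 6.25, 17.7 and 15.7 FPKM in controls (log2 change -1.89, SE 0.365, adjusted p = 0.0204). Hepatocyte sums were 3819, 5068 and 4176 FPKM with polyIC, against 10301, 9352 and 3013 FPKM in controls. Afp, the fetal liver and tumour protein, had 4.73, 5.19 and 9.77 FPKM with polyIC, against 19.8, 20.2 and 6.45 FPKM in controls (log2 change -1.03, SE 0.487, adjusted p = 0.238), and of 12 tested fetal liver and tumour genes (21 in the list) the 3 that fell were Krt8, Krt18 and Tspan8.

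Tgfa, a ligand of the EGF receptor, had 0.381, 0.456 and 0.348 FPKM with polyIC, against 1.96, 2.01 and 2.19 FPKM in controls (log2 change -1.13, SE 0.141, adjusted p = 0.00428). It was called in all 6 fits, at levels below 1 FPKM with polyIC. Gsta4, a glutathione transferase for lipid peroxidation products, had 2.65, 3.62 and 3.21 FPKM with polyIC, against 12, 25 and 16.2 FPKM in controls (log2 change -2.12, SE 0.279, adjusted p = 0.00624), and Fam213a, a redox protein, had 5.2, 6.88 and 6.36 FPKM with polyIC, against 14.4, 24.1 and 23.5 FPKM in controls (log2 change -1.57, SE 0.213, adjusted p = 0.00696). Cpe, a carboxypeptidase that processes peptide hormones, had 0.751, 1.25 and 1.55 FPKM with polyIC, against 5.94, 26.4 and 24.4 FPKM in controls (log2 change -2.97, SE 0.488, adjusted p = 0.012), and Ptgis, prostacyclin synthase, had 0.746, 4.29 and 1.74 FPKM with polyIC, against 28.2, 38.5 and 7.44 FPKM in controls (log2 change -2.86, SE 0.636, adjusted p = 0.0357).

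**Figure D5:**
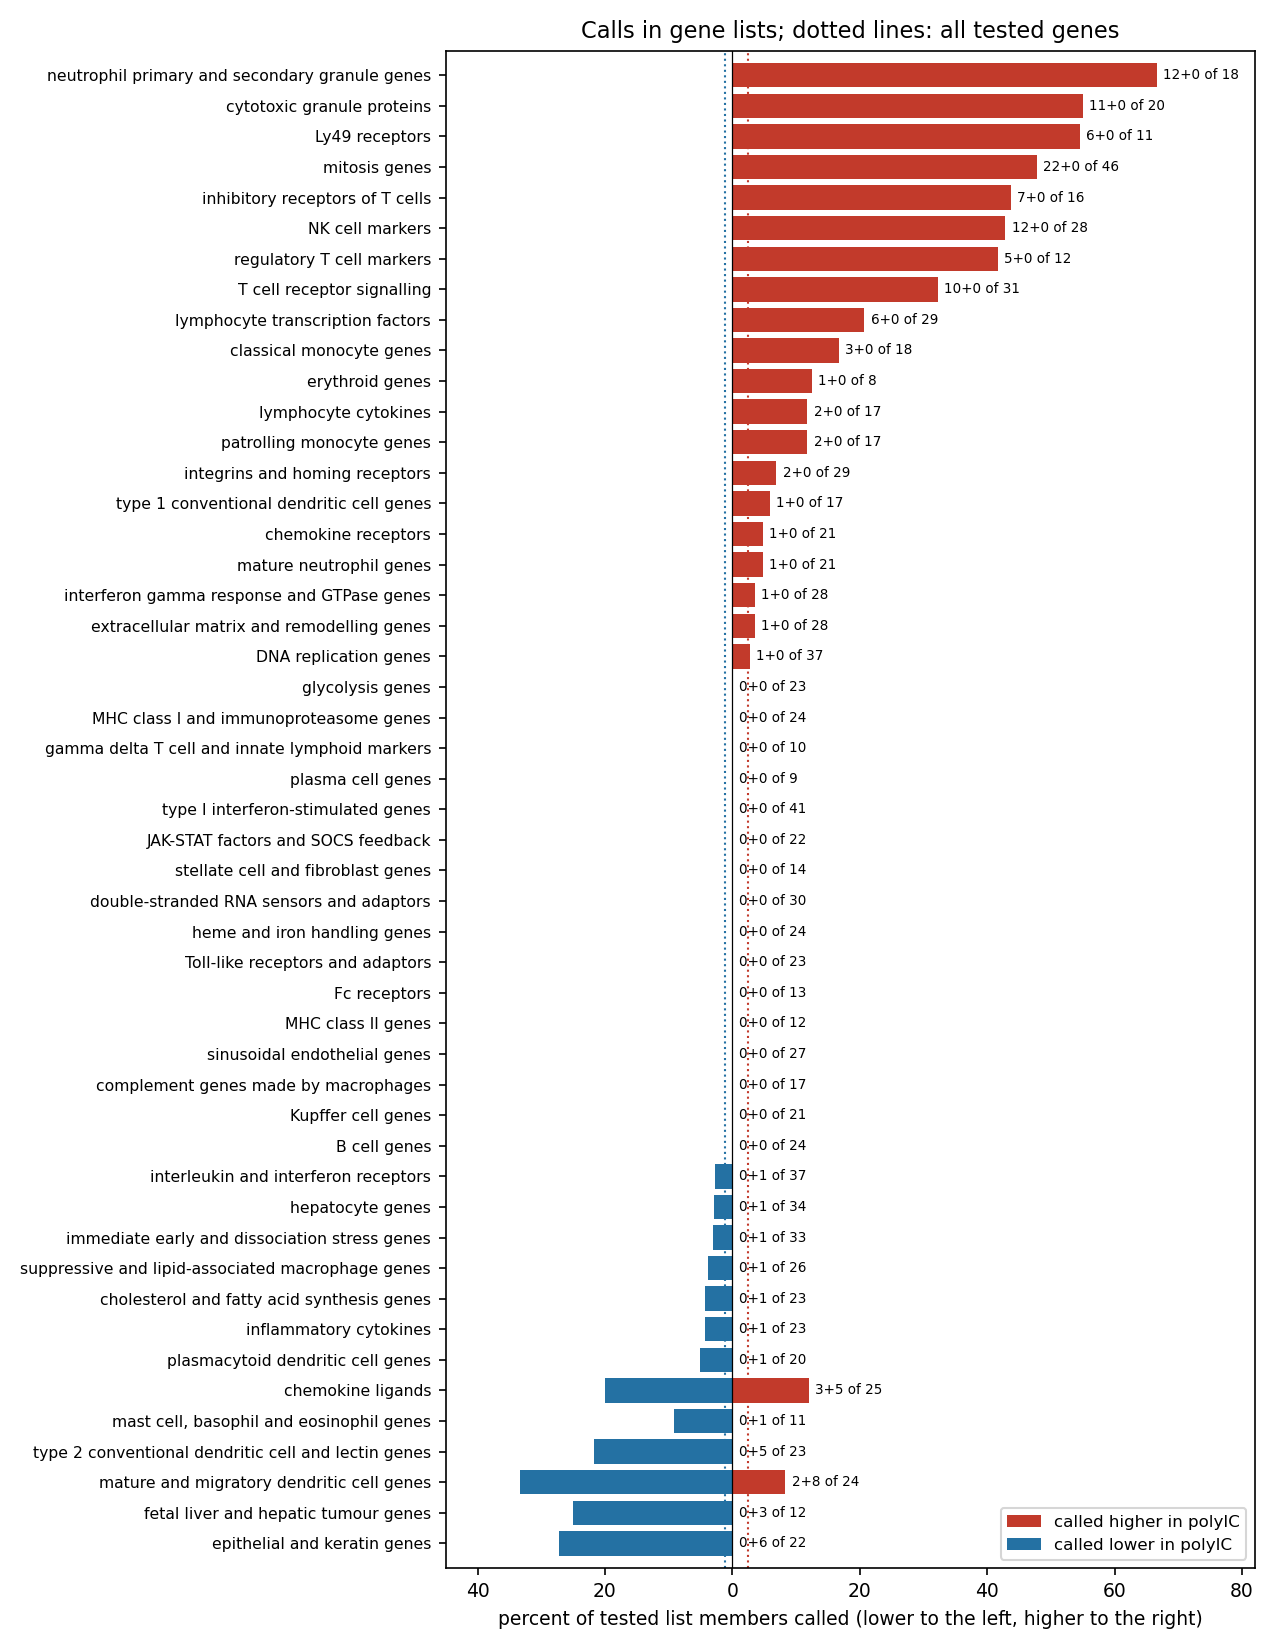
Percent of tested members called lower (blue, left) and higher (red, right) in polyIC for each list, with the numbers higher and lower (as higher+lower) and the number tested beside the bar. Dotted lines mark 1.17% lower and 2.46% higher over all genes. Neutrophil granule genes reach 12 of 18 on the right and mature dendritic cell genes 8 of 24 on the left. The shares of neutrophil granule and epithelial genes are partly set by the filter of 1 FPKM in 3 libraries.

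Outside these lists, several abundant genes rose. Ms4a4b, a membrane protein of T cells, had 770.3, 662 and 704 FPKM with polyIC, against 119, 197 and 324 FPKM in controls (log2 change 1.85, SE 0.35, adjusted p = 0.0191). Gimap4, a GTPase of lymphocyte survival, had 594, 584 and 544 FPKM with polyIC, against 188, 207 and 384 FPKM in controls (log2 change 1.22, SE 0.241, adjusted p = 0.0234), and S100a10, the annexin A2 partner, had 1014, 860.3 and 752 FPKM with polyIC, against 219, 317 and 519 FPKM in controls (log2 change 1.39, SE 0.339, adjusted p = 0.0479). Calcb, the beta form of calcitonin gene-related peptide, had 28.1, 3.11 and 16.7 FPKM with polyIC, against 0.0668, 0.0815 and 0.284 FPKM in controls (log2 change 3.49, SE 0.568, adjusted p = 0.012), with a wide spread among the polyIC libraries. Car2, a carbonic anhydrase listed with erythroid genes, had 61, 53.8 and 52.7 FPKM with polyIC, against 5.57, 7.51 and 16.8 FPKM in controls (log2 change 2.51, SE 0.361, adjusted p = 0.00856), while the globin genes of that list did not pass. Cd200r4, an activating relative of the CD200 receptor, had 35.8, 25.6 and 32.2 FPKM with polyIC, against 7.95, 10.4 and 8.08 FPKM in controls (log2 change 1.71, SE 0.191, adjusted p = 0.003), and Htra1, a secreted protease, had 3.94, 4.46 and 4.54 FPKM with polyIC, against 1.09, 0.582 and 0.648 FPKM in controls (log2 change 1.59, SE 0.199, adjusted p = 0.00428).

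Among abundant genes that fell, Mt1, a metallothionein, had 48.9, 45.6 and 48.4 FPKM with polyIC, against 139, 165 and 78.5 FPKM in controls (log2 change -1.33, SE 0.285, adjusted p = 0.031). Clu, clusterin, had 23.4, 32.2 and 35.7 FPKM with polyIC, against 76.2, 129 and 109.5 FPKM in controls (log2 change -1.74, SE 0.399, adjusted p = 0.0391), and Scimp, an adaptor of antigen-presenting cells, had 46.7, 54.9 and 48.9 FPKM with polyIC, against 87.8, 97.7 and 76.8 FPKM in controls (log2 change -0.79, SE 0.186, adjusted p = 0.0447). These 3 were called in 1 of the 6 fits each, that without control replicate 2. Chosen after their values were seen, 3 further genes stood out for a low level in all controls. Glp1r, the receptor of glucagon-like peptide 1, had 7.67, 8.58 and 3.71 FPKM with polyIC, against 0.152, 0.175 and 0.154 FPKM in controls (log2 change 2.66, SE 0.502, adjusted p = 0.019), Sdcbp2, a syndecan-binding scaffold, had 29.4, 15.2 and 18.8 FPKM with polyIC, against 1.29, 2.23 and 2.46 FPKM in controls (log2 change 2.86, SE 0.412, adjusted p = 0.00856), and Tnfrsf9, the costimulatory receptor 4-1BB of activated T and NK cells, had 76.5, 46.4 and 54.9 FPKM with polyIC, against 6.0, 11 and 15.4 FPKM in controls (log2 change 2.41, SE 0.47, adjusted p = 0.0216).

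Called genes that sit next to each other in the RefSeq gene order mostly moved together. Of 7550 adjacent pairs of protein-coding genes with both members tested, 29 pairs had both called, 26 in the same direction and 3 in opposite directions. With 295 of the 435 calls higher, called genes often share a direction wherever they lie. The share for pairs that are not neighbours was not computed. The pairs that moved together included Gzma with Gzmk, Gzma with Gpx8, Cd8a with Cd8b1, Elane with Prtn3, Sh2d1b2 with Sh2d1b1, Cd200r1 with Cd200r4, Klre1 with Klrd1 and the Klra6, Klra4, Klra8, Klra9 and Klra7 run, and, among the falls, Krt8 with Krt18 and Igfbp1 with Igfbp3. Heatr9, next to Ccl5, had 6.93, 5.8 and 5.97 FPKM with polyIC, against 0.461, 0.955 and 1.21 FPKM in controls (log2 change 1.97, SE 0.277, adjusted p = 0.00815). Such neighbours include duplicated genes, and no source used here says whether the authors' estimates used the strand, so reads of overlapping genes may be shared.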

How the data were processed

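RNA from CD45-positive liver cells was sequenced from a stranded mRNA kit, per the labels' protocols. Each gene has 1 deposited value in a library, read here as FPKM made by the authors with Cuffdiff on mm9, per the submitters' processing notes. The table does not name its unit, which rests on the values. No source used here names the version, aligner, annotation or scaling, and without counts no counting interval could be set, so precision comes from the spread between libraries.

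The table had 24319 entries, and 22 listed at 0 in a whole group but at 5 FPKM or more in every library of another were left out as failed estimates, Actb, Apoe and Cd74 among them. A gene was tested if it reached 1 FPKM in 3 or more of the 12 libraries. A gene below 1 FPKM in a whole group, as Mgl2, Retnla and Cxcl14 were with polyIC, could pass only through other groups. The share called in their lists is partly set by the filter. Differences were tested with limma 3.58.1 (R 4.3.3; limma-trend, two-sided) on log2(FPKM + 1) in 1 fit of the 12 libraries with a term for group, with Benjamini-Hochberg adjustment over 11978 genes. Fold changes on this scale understate low genes. A gene with an adjusted p under 0.05 is said to be called, to rise or to fall. Leaving out a library kept the other 11 in the fit. Python 3.11.15 was used for tables.

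Named genes were the 12 largest changes each way with groups apart, the 8 smallest adjusted p and the 10 most abundant calls each way (predicted genes and small RNAs aside), up to 6 called members of each list, its first 3 members, and all tested members of gene families. Other names were chosen after their values were seen. The members, lists, motifs and rule were all chosen with earlier results of these data known.

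Promoter windows of 300 bases were matched by symbol or synonym. Shares are given for lists with at least 80% of genes matched, and for the called genes (78.3% of those higher, 75.0% of those lower) and the interferon list (70.7%) that check was void. The alternatives were a pseudocount of 0.1, 2 other filters, 2 rescalings, a fit of 6 libraries, a replicate block, array weights, failed estimates kept and left-out libraries.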

Additional observations from a re-analysis of the deposited data

How the results depend on the processing

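The 435 calls (295 higher, 140 lower) depended on which libraries were in the fit and on how they were weighted. With 1 of the 12 libraries left out, there were 42 to 1871 calls, 31 to 686 higher and 11 to 1185 lower. The lowest total came without polyIC replicate 0, and the highest without control replicate 2. With control replicate 2 and antiPDL1 replicate 2 both out there were 2898 (1224 higher, 1674 lower), and with array quality weights, which gave control replicate 2 the weight 0.264, 3437 (1617 higher, 1820 lower). Quantile normalization gave 794 (488 and 306), median-of-ratios rescaling 635 (421 and 214), no filter 566 of 18837 genes (294 and 272), and a mean of at least 5 FPKM 209 of 8654 genes (167 and 42). A pseudocount of 0.1 gave 435 (319 and 116), the 6 libraries alone 460 (360 and 100), and failed estimates kept 457 (311 and 146). Similar totals did not mean the same genes. Of the 435 calls of the main fit, 399 were called with a pseudocount of 0.1 and 316 with the 6 libraries alone. Without a filter 310 of them were called, and with failed estimates kept all 435. Why the rescalings and weights raised the counts was not tested. A replicate block gave 428 (296 and 132), of which 336 were among the 435. Deviations of same-numbered polyIC and control libraries correlated at -0.116, -0.0279 and 0.0194. With 3 libraries a group, these values cannot decide whether replicate numbers mark a shared batch. The size factor, a scale for each library, was lowest in replicate 2 of every group (0.9 with polyIC and 0.939 in controls). A batch by replicate number was not tested further. Of the 158 named genes that were not called, 38 changed sign under at least 1 of these settings, each with a log2 change of 0.39 or less in size in the fit of 12 libraries and none of them called where the sign changed. The sign held in each setting for the 111 that were called. Leaving out a library could not change it, because their groups did not overlap. Of these 111, 89 no longer passed without polyIC replicate 0, 87 without control replicate 1 and 72 without control replicate 0. With 3 libraries a group, relative depths of 0.542 to 0.90 and no counts, the counting error of genes of a few FPKM or less is unknown.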
